A study of Mus musculus with 6 samples.

Results

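The caveolins and cavins are the structural proteins of caveolae, and their 7 genes were followed through 6 C2C12 libraries. The members were taken from the deposited expression table by gene symbol. They are Cav1, Cav2 and Cav3 for the caveolins, and Ptrf, Sdpr, Prkcdbp and Murc, older symbols of Cavin1, Cavin2, Cavin3 and Cavin4, for the cavins. All 7 were found among the 20950 entries of the table, and all 7 had a mean of at least 1 FPKM, the limit used for expressed genes. The family was chosen by FPKM values of these same libraries, known when it was proposed. Which comparison was used is not recorded, so all are counted as used, and the values are a description with no test. C2C12 cells are immortalised mouse myoblasts, which form myotubes once serum is withdrawn. Growing cells were kept in 10% FBS (fetal bovine serum). Differentiating cells were moved to 2% HS (horse serum) or to 0.2% FBS, each without and with exosomes isolated from FBS by commercial kits. The exosomes were added in about the amount that 10% FBS contains. There were 2 libraries of 0.2% FBS + exosome (replicates 1 and 2) and 1 library of each other condition.

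Caveolae are small flask-shaped pits of the plasma membrane. Caveolins are inserted into the inner leaflet as a hairpin and form the scaffold, and cavins assemble on it from the cytosol as a coat. Cav1 and Cav2 are made in many cell types and form mixed oligomers, whereas Cav3 is the muscle caveolin. Ptrf is required for caveolae in every tissue, Sdpr and Prkcdbp join it, and Murc is the cavin restricted to muscle. Caveolae serve as a membrane reserve under stretch, and in muscle Cav3 is also associated with developing T-tubules. Mutations of CAV3 and loss of PTRF cause muscle disease in humans.

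The promoter sequences are shown for Cav3 and Murc, the muscle forms that differed most between the libraries, and for Cav1 and Ptrf, their general counterparts. Each runs from 250 bases before to 50 bases after an annotated start site, read 5′ to 3′ on the strand of the gene, and was taken from RefSeq on GRCm38.p6. Capitals mark the letters CANNTG, the E-box core to which myogenic bHLH factors such as MyoD and myogenin can bind.
Cav3, chr6:112459255-112459554, plus strand: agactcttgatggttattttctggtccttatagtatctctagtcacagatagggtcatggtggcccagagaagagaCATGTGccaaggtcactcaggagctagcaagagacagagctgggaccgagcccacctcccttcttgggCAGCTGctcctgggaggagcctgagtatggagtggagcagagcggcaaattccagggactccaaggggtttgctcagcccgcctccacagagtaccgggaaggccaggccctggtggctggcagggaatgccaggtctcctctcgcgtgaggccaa
Murc, chr4:48663264-48663563, plus strand: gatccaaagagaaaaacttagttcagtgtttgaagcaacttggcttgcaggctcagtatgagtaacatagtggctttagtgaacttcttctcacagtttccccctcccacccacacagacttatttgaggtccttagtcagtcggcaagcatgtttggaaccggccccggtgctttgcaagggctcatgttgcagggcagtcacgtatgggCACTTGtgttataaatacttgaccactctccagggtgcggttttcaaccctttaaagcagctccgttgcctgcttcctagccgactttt
Cav1, chr6:17306085-17306384, plus strand: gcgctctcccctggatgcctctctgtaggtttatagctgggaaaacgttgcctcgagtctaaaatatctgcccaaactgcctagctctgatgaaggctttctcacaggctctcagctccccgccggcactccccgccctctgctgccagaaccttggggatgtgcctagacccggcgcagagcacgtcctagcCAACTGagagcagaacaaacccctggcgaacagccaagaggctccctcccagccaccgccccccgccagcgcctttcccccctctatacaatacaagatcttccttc
Ptrf, chr11:100970568-100970867, minus strand: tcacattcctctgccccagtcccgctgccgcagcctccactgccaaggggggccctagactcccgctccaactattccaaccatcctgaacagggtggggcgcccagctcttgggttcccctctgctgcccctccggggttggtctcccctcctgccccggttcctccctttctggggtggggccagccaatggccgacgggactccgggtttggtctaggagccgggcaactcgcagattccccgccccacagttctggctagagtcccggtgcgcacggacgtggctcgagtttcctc

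Windows of this length were found for 6 of the 7 members. The Cav3 window holds CATGTG 174 bases and CAGCTG 106 bases before the start site. The Murc window holds CACTTG 39 bases before the start site, and TATAAA 30 bases before it. The first Cav1 start site has CAACTG 57 bases upstream and TATAAA on the reverse strand 221 bases upstream, a second Cav1 window, not printed, holds CAGGTG 158 bases before its start, and the Ptrf and Sdpr windows hold no CANNTG. The Cav2 window holds CAAGTG and CAACTG, 140 and 47 bases before its start. Of 32544 different mouse promoter windows of the same length, 72.3% hold CANNTG on either strand, which reads the same on both, and 39.6% hold at least 2. CAGCTG, which is also counted as CANNTG, is found in 16.4% of them, and TATAAA in 13.6% when both strands are searched. MEF2 and CArG box matches occur in 3.16% and 1.64% of windows and in none of the member windows. These matches are letters in a window and say nothing of binding in these cells.

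In GENCODE vM21 (mm10), Cav2 and Cav1 lie side by side on the plus strand of chromosome 6. Cav2 spans 17281185 to 17289115 and Cav1 spans 17306335 to 17341452, with 17219 bases between them. Cav3 is on the same strand of chromosome 6, from 112459505 to 112472872, about 95.1 Mb away. The cavin genes are spread over other chromosomes. Ptrf is at 100956733 to 100970887 on chromosome 11 (minus strand), Sdpr at 51289126 to 51302960 on chromosome 1 (plus), Prkcdbp at 105480083 to 105482300 on chromosome 7 (minus) and Murc at 48663514 to 48673502 on chromosome 4 (plus). The 3 caveolins are short proteins of 178 codons (Cav1), 162 codons (Cav2) and 151 codons (Cav3). The cavins have 392 codons (Ptrf), 418 (Sdpr), 260 (Prkcdbp) and 362 (Murc), each in 2 exons. Of the stretches of 75 bases, the read length, in their annotated transcripts, none of 6 members occurred in a transcript of another gene. For Prkcdbp, 300 of 1588 stretches (18.9%) also lie in Gm45667, an annotated transcript on the opposite strand. The strand setting behind the FPKM values is not given in the sources used here, so reads of these overlapping transcripts cannot be told apart.

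FPKM values divide the reads of a gene by transcript length and library depth, so levels can be compared between genes. The table holds no read counts. From the spacing of low FPKM values the depth was estimated at between 33500000 and 39400000 reads per library. At these depths the scarcest member, Cav2, rested on about 213 to 483 reads, Cav3 on about 483 to 2445, and Ptrf on about 13245 to 17556. The muscle identity of the cultures was clear from most markers. Of the 10 skeletal muscle markers, 9 were expressed, and Myf6 was at only 0.0541 to 0.315 FPKM. The 10 summed to between 3691 and 10531 FPKM, a large part of it Acta1, at 1610 to 5322 FPKM. Myod1 was at 83.7 to 110 FPKM, Des at 543 to 1061 FPKM and Myf5 at 4.22 to 12.9 FPKM. Endothelial cells and adipocytes are rich in caveolae, and their markers were at or near 0. All 8 endothelial markers together reached 0.24 to 0.371 FPKM, with Kdr, Tie1 and Emcn at 0 in all 6 libraries. The 6 adipocyte markers summed to 1.27 to 1.62 FPKM, with Lep at 1.01 to 1.62 FPKM and Fabp4 at up to 0.336, and Cidec and Cfd were at 0 throughout.

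Cav3 was at 23.5 FPKM in 10% FBS, 57.6 in 2% HS, 73.4 in 2% HS + exosome and 69.7 in 0.2% FBS. In 0.2% FBS + exosome, replicate 1 had 25.8 FPKM and replicate 2 had 15.0 FPKM. The libraries therefore fell into a high set of 3, all differentiating, and a low set. The low set was made of growing cells and of both exosome replicates in 0.2% FBS, which are labelled differentiating too. With exosomes in 0.2% FBS, Cav3 stood at 0.37 and 0.216 of its level without them. The log2 difference of FPKM + 1 was −1.40 for replicate 1 and −2.14 for replicate 2, with a mean of −1.77 (SD 0.52, n = 2). Within the order of its levels, the step from 25.8 to 57.6 FPKM (1.13 on the log2 scale) was the only step between neighbouring libraries larger than the gap between the exosome replicates (0.74). The position of 10% FBS between these replicates is thus within their spread.

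Murc followed the same division at a higher level. It was at 58.3 FPKM in 10% FBS, 159 in 2% HS, 174 in 2% HS + exosome and 173 in 0.2% FBS. With exosomes in 0.2% FBS, replicate 1 had 44.3 FPKM and replicate 2 had 34.8, below growing cells. Murc stood at 0.256 and 0.201 of its level without exosomes, a log2 difference of −1.94 and −2.28 (mean −2.11, SD 0.24, n = 2). Its replicate gap was 0.34, and the step from 58.3 to 159 FPKM was 1.43. The 3 high libraries differed among themselves by less than the replicate gap. The step from replicate 1 up to 10% FBS, 0.39, was slightly larger than that gap. This did not hold after division by Rpl13a, the RT-qPCR reference gene. On that scale replicates 1 and 2 were at −0.05 and −0.87 against 10% FBS. Among 10731 expressed genes ranked by the mean change with exosomes in 0.2% FBS, Murc was number 11 from the lowest and Cav3 number 44.

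**Figure D1:**
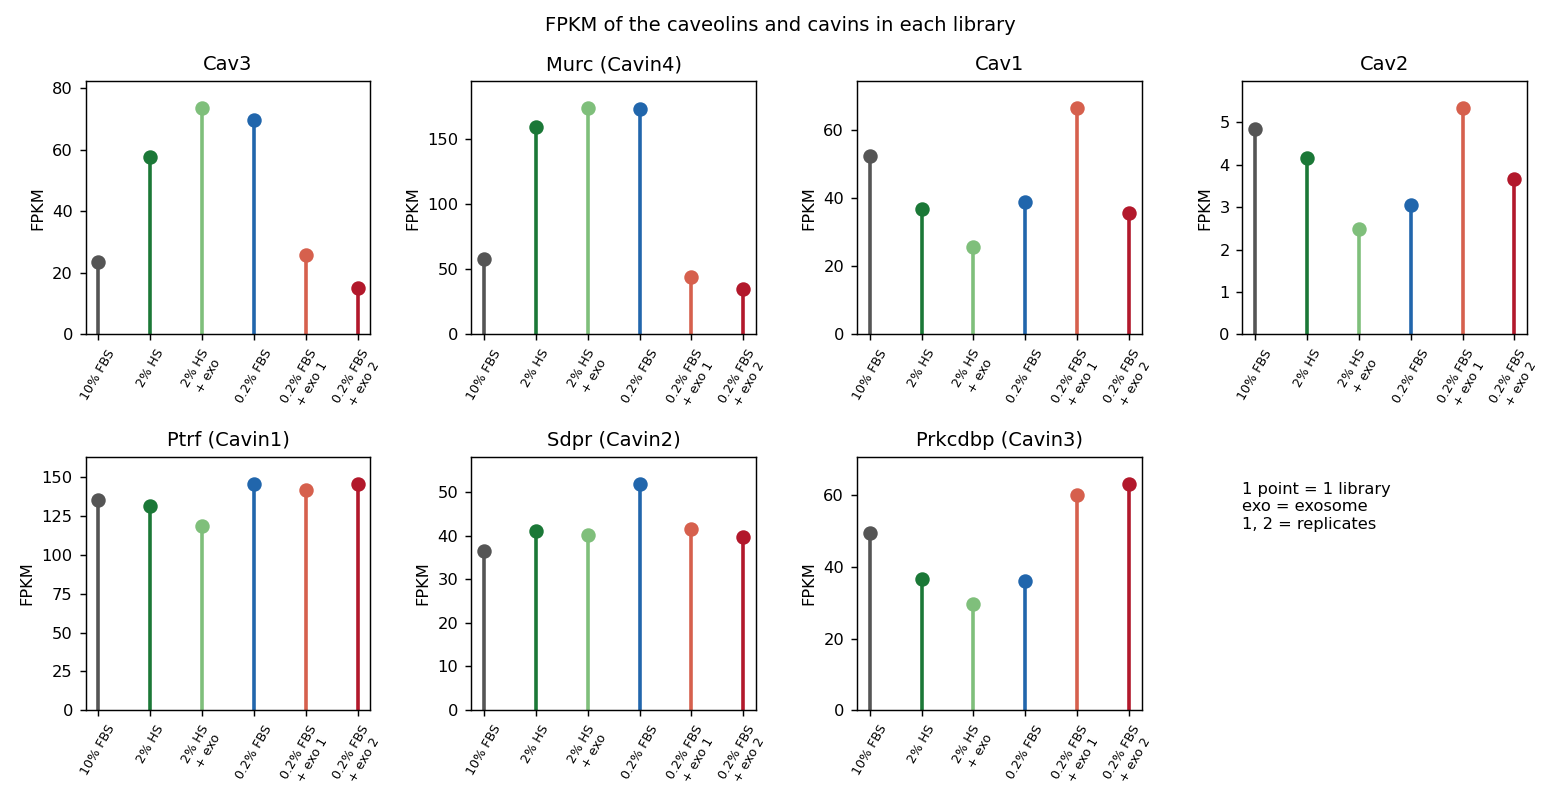
FPKM (vertical axes, from 0) of each member in the 6 libraries, 1 point per library, with exo for exosome and 1 and 2 for the replicates. Cav3 and Murc are high in 2% HS with and without exosomes and in 0.2% FBS, and low in 10% FBS and both 0.2% FBS + exosome libraries, whereas Ptrf stays between 118 and 146 FPKM.

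In differentiation media without exosomes, the same pair stood above its level in growing cells. Relative to 10% FBS, Cav3 was 2.96 times as high in 0.2% FBS (log2 difference 1.53) and 2.45 times as high in 2% HS (1.26). Murc was 2.97 times (1.56) and 2.73 times (1.43) as high. Each of these values compares 1 library with 1 library and has no replicate check. The threshold of the study's methods, a log2 difference above 1 or below −1, was passed upward by 2 of the 7 members in 0.2% FBS and by 2 in 2% HS, Cav3 and Murc in each medium. Of all 10731 expressed genes, 1.79% passed upward in 0.2% FBS and 0.69% downward, and in 2% HS 1.79% and 0.522%. No member passed downward.

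With exosomes in 0.2% FBS, 2 of the 7 members, Cav3 and Murc, passed the threshold downward in each library, and 0 passed upward. The shares of all genes that did so were 1.61% and 0.895%, which is 173 and 96 genes. After every library was scaled to the same 75th percentile, 232 genes passed downward and 47 upward. Nothing is read from the count of members, since they were proposed with these values known. The median change of the 7 members was −0.02, against 0.14 for all expressed genes. Relative to that median gene, Cav3 changed by −1.91 and Murc by −2.25. In 2% HS, 0 members passed in either direction, against 0.298% of genes lower and 0.354% higher. There Cav3 was 0.35 and Murc 0.13 higher with exosomes on the log2 scale, 1 library against 1. However, Murc was at −0.03 when the libraries were divided by Rpl13a. The 0.2% FBS + exosome libraries were also compared with growing cells. In that comparison 0 of 7 members passed, with 0.00932% of genes lower and 0.205% higher. Murc was lower than in 10% FBS in each replicate (−0.39 and −0.73), and Cav3 was at 0.13 and −0.61. Between the media without exosomes, 0.2% FBS against 2% HS, 0 members passed (0.298% of genes lower and 0.233% higher). Cav3 and Murc differed there by 0.27 and 0.12, and by 0.05 and −0.10 after division by Rpl13a.

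**Figure D2:**
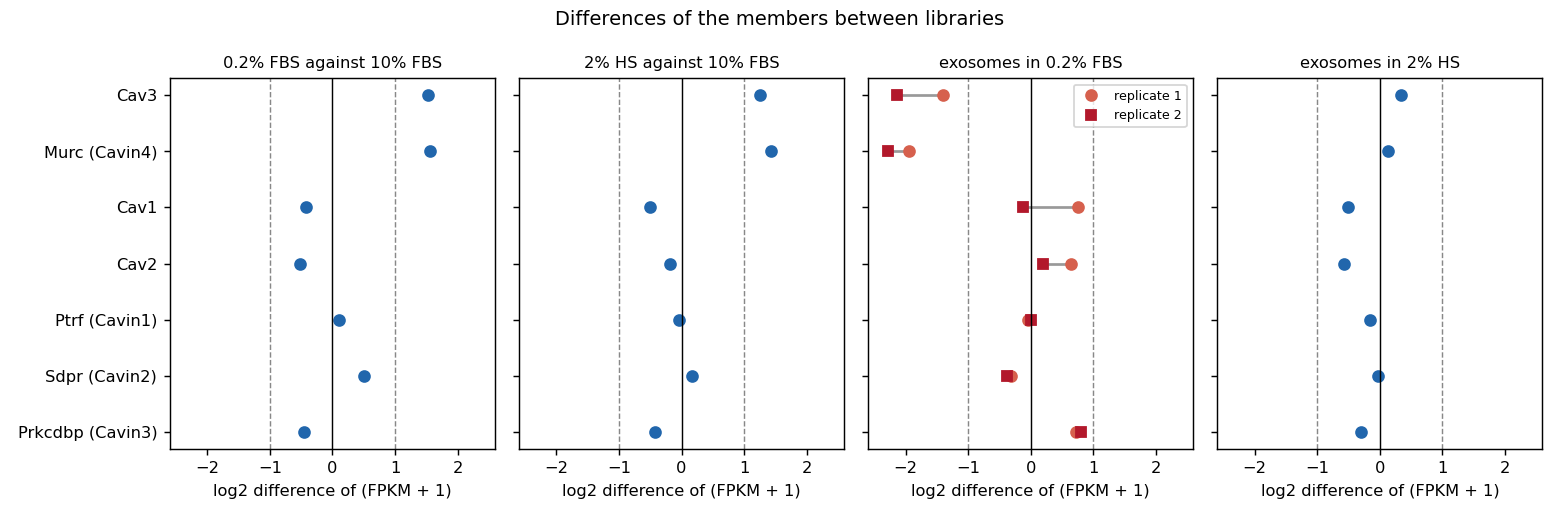
Log2 difference of FPKM + 1 (horizontal axes) for each member in 4 comparisons, with the threshold at −1 and 1 dashed, 1 point per library and the exosome replicates in 0.2% FBS joined by a line. Cav3 and Murc lie right of 1 against 10% FBS and left of −1 with exosomes in 0.2% FBS, and every point in 2% HS with exosomes lies between −0.57 and 0.35.

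The general caveolins showed another pattern. Cav1 was at 52.4 FPKM in 10% FBS, 36.8 in 2% HS, 25.6 in 2% HS + exosome and 39.0 in 0.2% FBS. The exosome replicates in 0.2% FBS disagreed, at 66.4 FPKM in replicate 1, the highest of all libraries, and 35.8 in replicate 2. The log2 differences were 0.75 and −0.12 (mean 0.32, SD 0.62, n = 2), so the direction depends on which replicate is taken. After division by Rpl13a they were 0.75 and −0.61, with a mean of 0.07. Every step in the order of the Cav1 levels was smaller than the gap of 0.87 between these replicates, a gap larger than that of 99.0% of expressed genes. Cav2, which needs Cav1 to reach the cell surface, was the scarcest member. It was at 4.84 FPKM in 10% FBS, 4.16 in 2% HS, 2.48 in 2% HS + exosome and 3.06 in 0.2% FBS, with 5.33 and 3.66 FPKM for the exosome replicates. Its differences with exosomes in 0.2% FBS were 0.64 and 0.20 (mean 0.42, SD 0.31, n = 2), and replicate 2 was at −0.18 after division by Rpl13a. All steps between its neighbouring levels were also smaller than the replicate gap of 0.44. In 2% HS the library with exosomes had the lowest level of both genes, −0.51 for Cav1 and −0.57 for Cav2. Cav1 exceeded Cav2 by 8.84 to 12.7 times in every library.

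**Figure D3:**
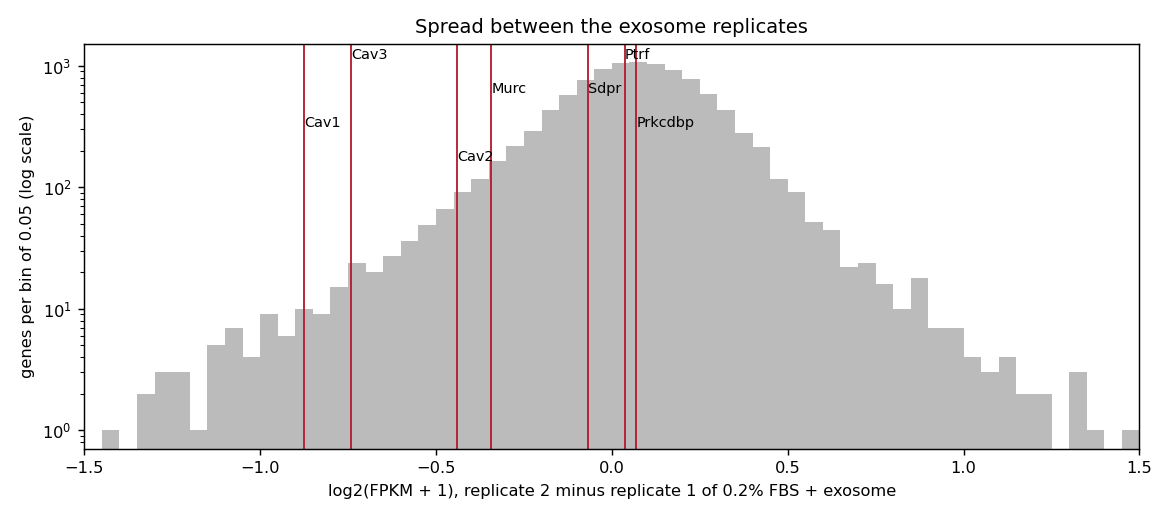
Histogram of log2(FPKM + 1) in replicate 2 minus replicate 1 of 0.2% FBS + exosome (horizontal axis) over the 10731 expressed genes, with the number of genes per bin of 0.05 on a log axis and a line for each member; genes beyond 1.5 in either direction are not drawn. Cav1 (−0.87) and Cav3 (−0.74) lie far to the left, and Ptrf, Sdpr and Prkcdbp lie within 0.07 of 0.

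Among the cavins, Ptrf, the coat protein that all caveolae need, had the highest mean of the 7 members (136 FPKM) and varied least. It was at 135 FPKM in 10% FBS, 132 in 2% HS, 118 in 2% HS + exosome and 146 in 0.2% FBS, with 142 and 146 FPKM for the exosome replicates. Its highest level was 1.23 times its lowest. The change with exosomes in 0.2% FBS was −0.04 and 0.002, and −0.17 and −0.18 after the libraries were scaled to the same 75th percentile. After division by Rpl13a, which was at 622 FPKM in replicate 1 and 875 in replicate 2, the Ptrf values were −0.05 and −0.50, so the close agreement of the replicates did not hold on that scale. Sdpr, a cavin that binds phosphatidylserine and helps to curve the membrane, had its highest level in 0.2% FBS. The values were 36.4 FPKM in 10% FBS, 41.1 in 2% HS, 40.2 in 2% HS + exosome, 51.8 in 0.2% FBS, and 41.6 and 39.7 in the exosome replicates. With exosomes in 0.2% FBS its log2 difference was −0.31 and −0.38 (SD 0.05, n = 2), larger than its replicate gap of 0.07 and short of the threshold. The mean was −0.34, against −0.50 after scaling to the 75th percentile and −0.59 after division by Rpl13a. On the Rpl13a scale the replicates were at −0.32 and −0.87, farther apart than the difference in replicate 1.

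Prkcdbp, named for its binding to protein kinase C delta, ran opposite to the muscle forms. It was at 49.5 FPKM in 10% FBS and lower in 2% HS (36.6), 2% HS + exosome (29.7) and 0.2% FBS (36.0). The exosome replicates in 0.2% FBS had the 2 highest levels, 60.2 and 63.2 FPKM. The log2 difference with exosomes was 0.73 and 0.80 (mean 0.76, SD 0.05, n = 2) and larger than the replicate gap of 0.07, though short of the threshold of 1. It was 0.61 after scaling to the 75th percentile and 0.51 after division by Rpl13a, with replicates at 0.72 and 0.31 on the latter scale, farther apart than the difference in replicate 2. In 2% HS it was −0.29 with exosomes. Against 10% FBS it was at −0.45 in 0.2% FBS and −0.43 in 2% HS, and after division by Rpl13a these were −0.11 and 0.13. Rpl13a was itself at 787 FPKM in 10% FBS and 529 in 2% HS. That division also turned the differences of Cav1 (−0.50), Cav2 (−0.18) and Ptrf (−0.04) between 2% HS and 10% FBS to positive values, as scaling to the 75th percentile did for Ptrf (0.01).

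Shares within each family do not depend on library scaling. Cav3 made up 29.1% of the summed caveolin FPKM in 10% FBS, 58.4% in 2% HS, 72.3% in 2% HS + exosome and 62.4% in 0.2% FBS. In replicates 1 and 2 of 0.2% FBS + exosome it made up 26.5% and 27.6%. The replicates thus agreed within 1.17 percentage points in the share, although the levels of Cav1 and Cav3 had differed widely between them. Cav1 held most of the remainder, with 64.9% in 10% FBS, 34.9% in 0.2% FBS, and 68.1% and 65.6% with exosomes. The ratio of Cav3 to Cav1 was 0.449 in 10% FBS, 1.57 in 2% HS, 2.87 in 2% HS + exosome and 1.79 in 0.2% FBS, and 0.389 and 0.421 in the exosome replicates.

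Murc made up 20.9% of the summed cavin FPKM in 10% FBS, 43.2% in 2% HS, 48.0% in 2% HS + exosome and 42.6% in 0.2% FBS, and 15.4% and 12.3% in the exosome replicates. Ptrf, at 48.4% in 10% FBS and 35.8% in 0.2% FBS, was at 49.3% and 51.4% in these replicates. Prkcdbp held 17.7% of the cavins in 10% FBS, 8.84% in 0.2% FBS, and 20.9% and 22.3% with exosomes. Sdpr kept a share between 11.1% and 14.4% in all 6 libraries. In each family, 2% HS + exosome had the largest share of the muscle form and the 0.2% FBS + exosome libraries the smallest.

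**Figure D4:**
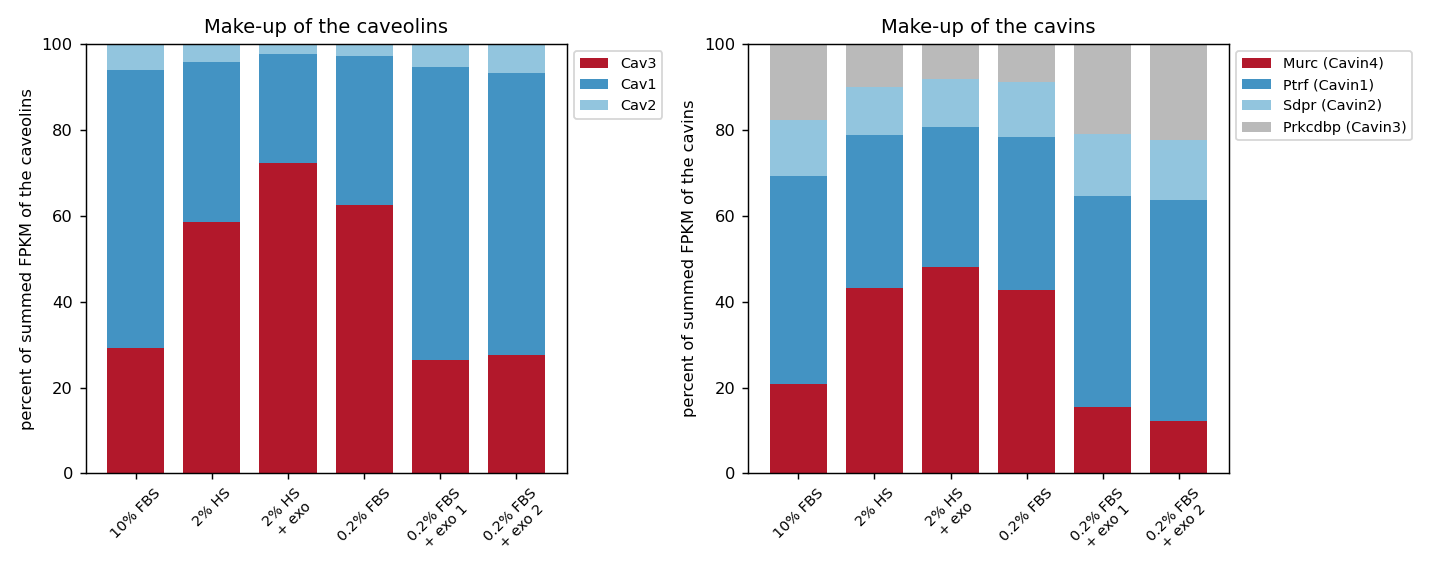
Percent of the summed FPKM of the caveolins (left) and cavins (right) held by each member, with 1 stacked bar per library. The muscle forms Cav3 and Murc, in red at the base, take 62.4% and 42.6% in 0.2% FBS and at most 27.6% and 15.4% in the exosome replicates of that medium.

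Other proteins of caveolae and of the muscle membrane were read from 4 lists. Neck and shaping proteins were not uniform. Of 10 genes, 9 were expressed, and with exosomes in 0.2% FBS 4 were lower and 5 higher in each library (median 0.04). Only Pacsin3, the muscle member of a family of membrane-bending F-BAR proteins, passed the threshold downward, at −1.21 and −1.39. It was at 37.3 FPKM in 10% FBS, 76.2 in 2% HS, 81.3 in 2% HS + exosome, 83.8 in 0.2% FBS, and 35.6 and 31.4 in the exosome replicates, the same division of libraries as Cav3 and Murc. Ehd2, the ATPase at the caveolar neck, had 60.1 FPKM without exosomes in 0.2% FBS, against 75.1 and 71.6 with them. Of 12 expressed partners at the muscle membrane and T-tubule, 9 lay below and 1 above the control in each exosome library of 0.2% FBS (median −0.83), and 11 and 1 after scaling to the 75th percentile. Trim72, a membrane repair protein that binds Cav3, passed downward at −1.32 and −1.79, and Jph1, which ties the T-tubule to the sarcoplasmic reticulum, at −1.11 and −1.16. After scaling to the 75th percentile, 3 of these partners passed downward, as did 232 of all 10731 expressed genes. Bves was the gene that was higher. Bin1, which shapes T-tubules, had 508 FPKM without exosomes in 0.2% FBS, against 294 and 283 with them, short of the threshold.

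The flat raft scaffold proteins, which include the flotillins, are not part of the caveolar coat. Of 5 expressed, 2 lay below and 3 above the control in each exosome library of 0.2% FBS (median 0.30) and 0 passed the threshold in either direction. Of 9 expressed signalling proteins known to bind caveolins or cavins, 8 were above and 0 below the control in each exosome library (median 0.53), with 0 past the threshold. After scaling to the 75th percentile 7 were above and 2 below. Over all expressed genes, 27.5% were lower and 55.2% higher in each of these libraries, and 41.5% and 40.9% after that scaling. Of 9 expressed skeletal muscle markers, 8 were below the control in each exosome library (median −1.13), and 4 passed the threshold, Myh3, Mef2c, Acta1 and Tmem8c. The exception was Myf5, a factor of undifferentiated myoblasts, above the control in each library with a mean of 0.96, and Myod1 was at −0.33 and −0.13. After scaling to the 75th percentile, 6 of these markers passed downward, as did 232 of all 10731 expressed genes. Without that scaling, 173 of the expressed genes (1.61%) passed downward. The sum of the 10 markers was 10531 FPKM in 0.2% FBS and 4938 and 3691 FPKM with exosomes, and their part in the result for Cav3 and Murc was not tested. In bulk RNA, fewer differentiated cells and less RNA per cell cannot be told apart.

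**Figure D5:**
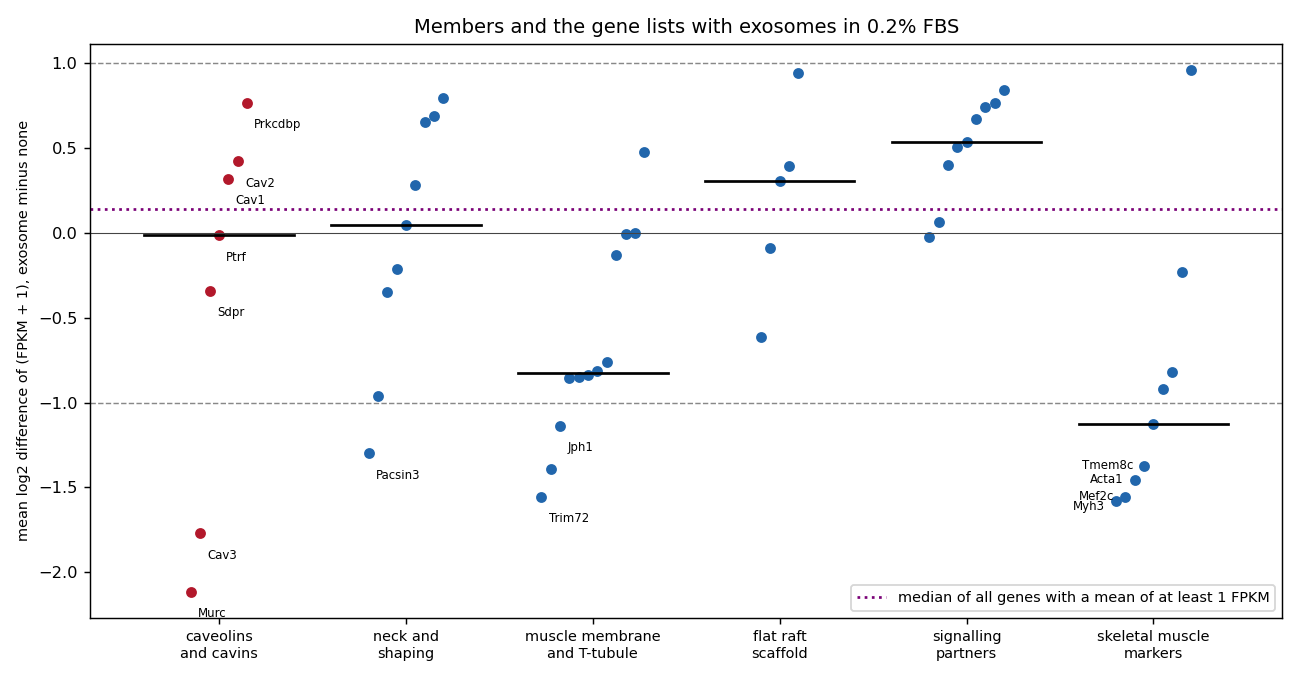
Mean log2 difference of FPKM + 1 with exosomes in 0.2% FBS (vertical axis) for the expressed genes of the members and 5 gene lists, 1 point per gene, with each list's median as a bar, the median of all expressed genes dotted and the threshold at −1 and 1 dashed. Names are given for the members and for genes past the threshold in each library, and the muscle membrane list (median −0.83) lies below the signalling partners (0.53).

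The genes most like each member were taken as the 3 with the smallest root mean square difference of centred log2(FPKM + 1) over the 6 libraries, among 10720 genes. For Cav3 they were Tnni2 (0.09), Myom2 (0.10) and Krt80 (0.10). Tnni2 and Myom2 encode a fast troponin I and an M-band protein. For Murc they were Lmod2 (0.05), Lmod3 (0.11) and Tnnc1 (0.12), the first 2 being leiomodins of the thin filament. Cav3 and Murc themselves differed by 0.21, more than either did from these genes. Those genes were picked as the closest of 10720, so nothing is read from the larger difference. For Prkcdbp the list held Phf1 (0.03), Nrp1 (0.05) and Prkcd (0.05). Prkcd encodes protein kinase C delta, and it was at 13.7 FPKM in 10% FBS, 8.88 in 2% HS, 7.05 in 2% HS + exosome, 9.39 in 0.2% FBS, and 15.6 and 17.1 in the exosome replicates. For Cav1 the list held Col1a2 (0.11), a type I collagen chain, with Pcdh19 (0.15) and Fam212b (0.17). Cav2 was closest to Dcbld2 (0.09), Polk (0.10) and Phf6 (0.10), and differed from Cav1 by 0.20. Sdpr was closest to Gnas, Pdzrn3 and Bag2 (0.06 each), and Ptrf, which hardly varied, to Usp42 (0.02), Vps4a (0.03) and Zzef1 (0.03). These profiles share all 6 libraries.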

How the data were processed

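C2C12 mRNA of 6 libraries was read as 75 bp single-end reads from a stranded mRNA kit. The authors trimmed reads with cutadapt 1.9.1, mapped them to mm10 with TopHat2 2.1.0 and computed FPKM with Cufflinks, and deposited 1 table of FPKM values, used here as given. The gene annotation and the strand setting are not given in the sources used here. Differences were computed as log2(FPKM + 1), a scale that shrinks the difference where values are low, and a gene counted as expressed if its mean reached 1 FPKM. A gene passed when its log2 difference was above 1 or below −1 in each library. Only 0.2% FBS + exosome had 2 libraries, and their labels do not say whether they came from separate cultures, so their SD may be technical. No significance test was run. Members and lists were chosen with earlier results of these data known. Named genes are the members, list genes past the threshold (at most 4 per list) and the 3 genes most like each member. Other list genes with a value were chosen after their values were seen. Depth was estimated from low FPKM values of genes with 1 annotated transcript over 1000 bases, assuming fragments of 200 bases, within 0.1 of a whole read. The code that applies the threshold was tested on simulated data. Alternatives were a pseudocount of 0.1, values raised to 1 FPKM, scaling to the 75th percentile, division by Rpl13a, leaving out each exosome replicate, and no filter on low values. Python 3.11.15, numpy 2.4.6, pandas 2.3.3 and matplotlib 3.10.9 were used.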

Additional observations from a re-analysis of the deposited data

Results flagged for a closer look

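For 4 members the exosome libraries in 0.2% FBS moved one way, in each replicate, and the exosome library in 2% HS moved the other way. Of all expressed genes, 55.2% were higher and 27.5% lower in each exosome library of 0.2% FBS, and 58.7% were lower in 2% HS. The share of genes that moved in opposite ways was not computed, so nothing is read from the count of 4. Subtracting the change in 2% HS from the one in 0.2% FBS gave a log2 value of −2.12 for Cav3, −2.24 for Murc, 1.06 for Prkcdbp and 0.99 for Cav2. These differences between the media were not tested, because 2% HS, 2% HS + exosome and 0.2% FBS have 1 library each. After division by Rpl13a, Murc was at −0.03 in 2% HS and Cav2 at −0.18 in replicate 2 of 0.2% FBS, so that their directions were no longer opposite in every library. The labels number the 2% HS pair 1, 0.2% FBS and its replicate 1 with exosomes 2, and replicate 2 with exosomes 3. Whether they stand for batches is not stated, and a batch could not be told apart from the medium.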

How the results depend on the processing

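The number of members past the threshold was the same in all 6 comparisons under each alternative scale and scaling, and in the 2 comparisons with 0.2% FBS + exosome also without either replicate. It was 2 for exosomes in 0.2% FBS, for 0.2% FBS against 10% FBS and for 2% HS against 10% FBS, and 0 in the others. With exosomes in 0.2% FBS, Cav3 ranged from −2.14 to −1.40 and Murc from −2.36 to −1.94 over the alternatives. Cav1 was at −0.12 without replicate 1 and 0.75 without replicate 2. The share of Cav3 among the caveolins in 2% HS + exosome was 71.2% on FPKM + 1 in place of 72.3%. Without the filter on low values, the shares of entries past the threshold with exosomes in 0.2% FBS were 0.835% lower and 0.458% higher, and in 2% HS 0.158% and 0.186%. Between 0.2% FBS and 2% HS they were 0.167% and 0.129%, and between 0.2% FBS + exosome and 10% FBS 0.00477% and 0.105%. Against 10% FBS the shares were 0.368% and 0.931% in 0.2% FBS, and 0.267% and 0.945% in 2% HS. Each is lower than with the filter, since few of the added entries passed. With exosomes in 0.2% FBS, for example, 175 entries passed downward in place of 173. Division by Rpl13a left 3 of the neck proteins higher in place of 5, 1 flat raft scaffold protein in place of 3 and 0 muscle membrane partners in place of 1, counts added after the data were seen. Each medium has 1 control library, so the spread between controls is unknown. No paired analysis was possible because within each comparison the groups share at most 1 number. The media were compared separately and not pooled as pairs.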

Other observations

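The summed level of the caveolins was 80.8 FPKM in 10% FBS, 98.5 in 2% HS, 102 in 2% HS + exosome and 112 in 0.2% FBS. With exosomes in 0.2% FBS, replicate 1 had 97.5 FPKM and replicate 2 had 54.5. That of the cavins was 279, 369, 362 and 407 FPKM, and 288 and 283 FPKM in the replicates. The cavins exceeded the caveolins by 3.46 to 3.74 times in the 4 other libraries, by 2.95 times in replicate 1 and by 5.2 times in replicate 2. On these unscaled values the replicates therefore agreed in the cavin sum and not in the caveolin sum. In the latter, Cav1 was at 66.4 and 35.8 FPKM. Rpl13a was at 622 FPKM in replicate 1 and 875 in replicate 2, so the cavin sums would not agree after division by it. The ratio of Murc to Cav3 lay between 2.31 and 2.77 in 5 libraries and was 1.72 in replicate 1.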
